A study of Mus musculus with 10 samples.

Results

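A set of 8 genes that mark mast cells was followed across 4 sorted cell populations of mouse mammary tumours and control mammary glands. The 8 genes are Cpa3, Cma1, Mcpt4, Tpsb2, Fcer1a, Ms4a2, Kit and Hdc, out of 12394 genes with a probe set of their own on the arrays. They were chosen from values of the same arrays, because Cpa3 and Cma1 stood higher in tumour than in control fibroblasts and were taken to exceed other leukocyte genes in this, which the values given here bear out for some leukocyte genes and not for others. Their differences between tumour and control fibroblasts are therefore given as a description, with no test. The tumour fibroblast arrays also enter the comparisons with the other tumour populations, which are described in the same way for these genes. Only the comparison of both other tumour populations with each other did not enter the choice, and it was tested.

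All mice were of strain FVB/N and all cells came from the mammary gland. The 3 CAF arrays (cancer-associated fibroblasts) hold cells sorted from tumours of the genotype WAPCre-DNbcatn;HGF, and the 3 COF arrays hold fibroblasts sorted from the glands of WT mice. The CSC arrays (cancer stem cells, n = 2) and the TEC arrays (a further tumour population, n = 2) were sorted from tumours with that same genotype. As the genotype is named, Cre is driven by the promoter of WAP, a milk protein gene of the mammary epithelium. Tumour growth and genotype cannot be told apart between CAF and COF, since no array holds fibroblasts from an unaffected gland of the tumour genotype. RNA was extracted straight after sorting, and 100 ng of it was labelled for each of the 10 arrays. The surface markers of the sort and the age of the mice are not given in the sources used here, and the letters TEC are not spelled out in the labels, 1 field of which reads TEFs. Whether the arrays of a group came from separate mice is not in the labels, so p-values measure only the spread between these samples, which may be technical.

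Mast cells are tissue-resident granulocytes that store histamine, serglycin proteoglycan and proteases in granules, and release them when antigen cross-links IgE bound to the high-affinity IgE receptor. Their growth and survival depend on Kit, the receptor for stem cell factor (Kitl), which fibroblasts and other stromal cells make. Connective tissue mast cells of the mouse express carboxypeptidase A3, the chymases Cma1 and Mcpt4 and the tryptase Tpsb2, and they are normal residents of the mammary stroma.

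The sequence just upstream of the transcription start is shown for the 3 proteases and the receptor subunit whose levels carry the pattern described here. GATA factors, Gata2 above all, are required in mast cells, so the letters AGATAA were searched on both strands, also with T in place of the first A, G in place of the last A, or both, and a match is printed in capitals. Each stretch holds 120 bases of the minus strand of the RefSeq table of GRCm38.p6, written 5′ to 3′ and ending just before the start site: Cpa3 at chr3:20242182-20242301, Cma1 at chr14:55944676-55944795, Mcpt4 at chr14:56062311-56062430 and Fcer1a at chr1:173227230-173227349.
Cpa3: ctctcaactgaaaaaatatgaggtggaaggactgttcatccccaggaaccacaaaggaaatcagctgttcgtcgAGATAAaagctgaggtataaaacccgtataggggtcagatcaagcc
Cma1: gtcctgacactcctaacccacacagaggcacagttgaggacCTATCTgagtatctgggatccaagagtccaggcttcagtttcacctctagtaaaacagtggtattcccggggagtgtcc
Mcpt4: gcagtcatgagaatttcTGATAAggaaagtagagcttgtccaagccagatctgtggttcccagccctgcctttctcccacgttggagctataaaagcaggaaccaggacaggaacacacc
Fcer1a: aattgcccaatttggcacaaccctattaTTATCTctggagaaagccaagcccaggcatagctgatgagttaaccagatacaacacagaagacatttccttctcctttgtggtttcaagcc
The first matched base lies 46 bases upstream of the start in Cpa3, 79 in Cma1, 103 in Mcpt4 and 92 in Fcer1a. In the window of 250 bases before to 50 bases after the start, 6 of the 7 genes with an entry held at least 1 match, Ms4a2 and Hdc among them, and Kit held none. Tpsb2 was not matched in the table. Across all 32851 windows of the table, 29.8% held at least 1 match. Counted by gene, 33% of 27025 genes did, so the letters are common and a match is no evidence of binding.

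Before the genes themselves, the labels were set against lists of cell type genes. The median of 16 fibroblast genes was between 13.19 and 13.22 on the log2 scale on CAF arrays and between 13.35 and 13.59 on COF arrays, against 8.38 and 8.40 on CSC arrays and 8.87 and 11.45 on TEC arrays. TEC array 2 thus stands apart from TEC array 1 in its fibroblast signal, and the values of the 8 genes that rest on the TEC arrays are given with and without it. With 1 array left in a group, limma takes that array to vary like the other groups. The median of 17 epithelial genes was 12.11 and 11.85 on CSC arrays and 9.24 and 9.61 on TEC arrays. The median of 12 genes shared by all leukocytes was 12.91 and 12.51 on TEC arrays and 10.34 and 9.63 on CSC arrays, so leukocyte genes stood far above the floor in both, and highest in the population labelled TEC. Array medians over all 22690 probe sets lay between 6.89 and 7.02 and lower quartiles between 5.05 and 5.26. Values under the lower quartile are treated here as close to the floor of the array, where differences are hard to read.

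The granule proteases are described first. Cpa3, the carboxypeptidase of mast cell granules, read 8.69, 7.72 and 8.85 on CAF arrays, against 5.94, 5.79 and 5.93 on COF arrays. It read 7.62 on both CSC arrays and 9.34 and 10.11 on TEC arrays. All 3 CAF values lay above all COF values and both CSC values, and below both TEC values. The CAF mean was 8.42 ± 0.61 and the COF mean 5.89 ± 0.08 (SD, n = 3 each), a difference of 2.53 ± 0.29 (SE), or 5.78-fold on the linear scale.

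Cma1, the mast cell chymase of the alpha family, followed the same order. Its values were 7.71, 7.16 and 7.93 on CAF arrays, against 5.08, 5.94 and 5.71 on COF arrays. They were 6.73 and 6.79 on CSC arrays and 8.52 and 9.27 on TEC arrays. CAF exceeded COF by 2.02 ± 0.28 (SE), or 4.07-fold, and 1 of the 3 COF values lay under the lower quartile of its array. Over the 10 arrays Cma1 and Cpa3 had a Pearson correlation of 0.977, which is a description of 2 genes selected together in 4 groups.

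Mcpt4, the chymase of connective tissue mast cells that lies on chromosome 14 as Cma1 does, showed a smaller difference. It read 6.35, 5.81 and 6.05 on CAF arrays, against 5.24, 5.31 and 5.45 on COF arrays. It read 4.90 and 5.15 on CSC arrays and 6.89 and 6.98 on TEC arrays. The groups did not overlap, and CAF exceeded COF by 0.74 ± 0.14 (SE), or 1.67-fold.

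Tpsb2, the tryptase also known as mMCP-6, differed least among the proteases. It read 6.39, 6.36 and 6.61 on CAF arrays, against 6.24, 6.18 and 5.95 on COF arrays, a difference of 0.33 ± 0.16 (SE). It read 5.41 and 5.93 on CSC arrays and 6.89 and 7.21 on TEC arrays. A second, dimmer probe set of Tpsb2 gave a CAF minus COF difference of -0.03 and a CSC minus TEC difference of 0.04, so both probe sets disagree. The dimmer one gave -0.54 for CAF minus CSC and -0.50 for CAF minus TEC. Mast cell tryptases and chymases belong to families of closely related genes, and how far their probe sets read each other's transcripts was not tested.

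**Figure D1:**
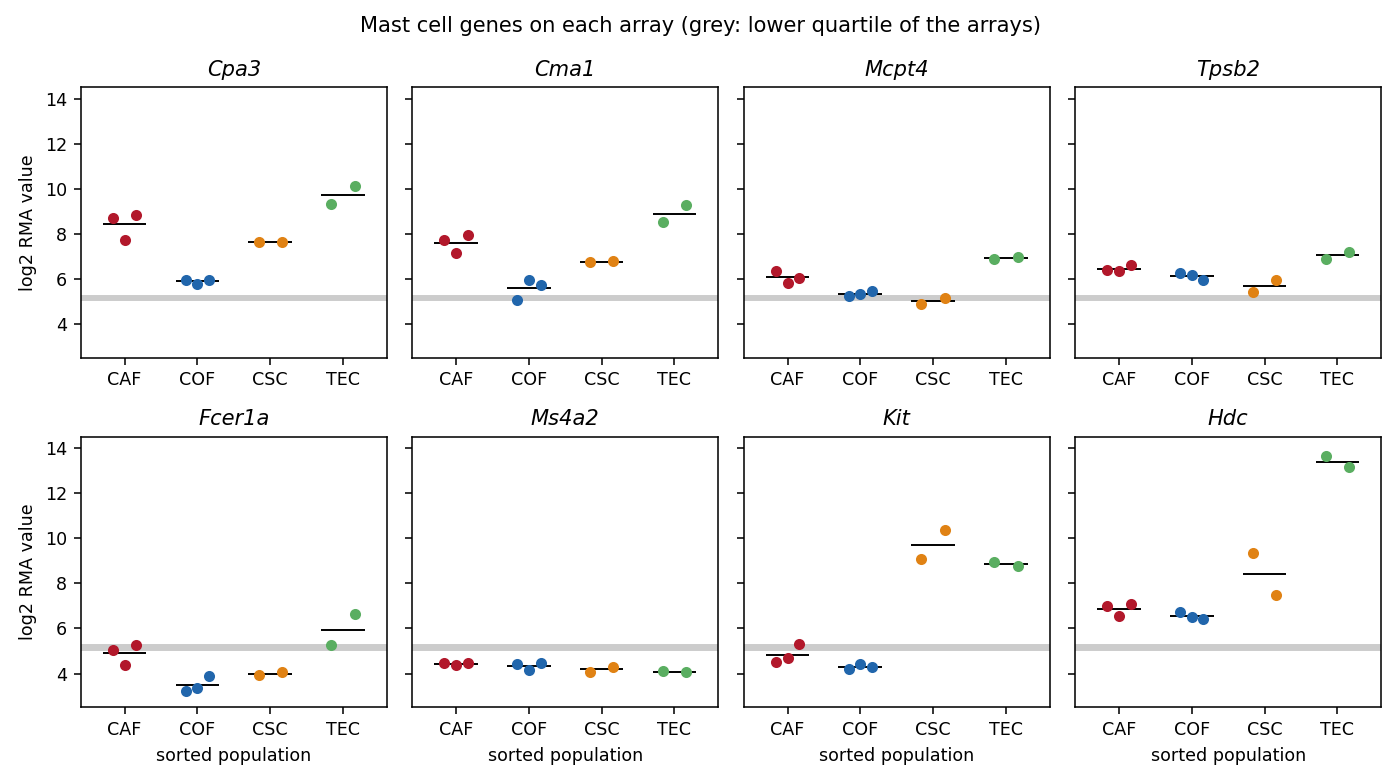
Log2 expression value (y axis) of each of the 8 genes on each of the 10 arrays, by sorted population (x axis), with points for arrays, black lines for group means and a grey band for the range of the arrays' lower quartiles, 5.05 to 5.26. The CAF values of Cpa3 lie between 7.72 and 8.85, above all COF values and below both TEC values, while Ms4a2 stays under the band on every array.

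The subunits of the IgE receptor are given in turn. Fcer1a, the alpha chain that binds IgE, read 5.03, 4.39 and 5.25 on CAF arrays, against 3.24, 3.37 and 3.88 on COF arrays. It read 3.92 and 4.08 on CSC arrays and 5.25 and 6.63 on TEC arrays. The CAF mean was 4.89 and the COF mean 3.50, a difference of 1.39 ± 0.35 (SE), or 2.62-fold. The order was that of Cpa3 and Cma1, yet 2 of 3 CAF values, all 3 COF values and both CSC values were under the lower quartile of their arrays.

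Ms4a2, the beta chain that amplifies the receptor's signal, was under the lower quartile on all 10 arrays. It read 4.46, 4.37 and 4.48 on CAF arrays, against 4.43, 4.14 and 4.48 on COF arrays, and the groups overlapped. It read 4.07 and 4.29 on CSC arrays and 4.10 and 4.07 on TEC arrays. A level of this gene above the floor was not detectable in any population.

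Kit and Hdc, the genes for the growth factor receptor and for the enzyme that makes histamine, did not follow the proteases. Kit read 4.49, 4.71 and 5.31 on CAF arrays, against 4.22, 4.42 and 4.28 on COF arrays. The CAF values lay above the COF values by 0.53 ± 0.31 (SE), 2 of the 3 CAF values and all COF values were under the lower quartile, and without CAF array 3 the difference was 0.29. Kit read 9.07 and 10.37 on CSC arrays and 8.96 and 8.77 on TEC arrays. A dimmer probe set of Kit gave the same directions with smaller differences, at 0.12 for CAF minus COF, -1.82 for CAF minus CSC, -1.08 for CAF minus TEC and 0.74 for CSC minus TEC. Kit is also known as a marker of luminal progenitor cells of the mammary epithelium, and a list of luminal progenitor genes that includes it had a median of 12.63 and 12.84 on CSC arrays, 9.91 and 10.05 on TEC arrays, 9.29 to 9.54 on CAF arrays and 6.38 to 6.91 on COF arrays. Gene by gene, the list did not differ as its medians do between CSC and TEC. Of its 10 genes, 2 passed limma's test as higher in CSC and 2 as lower (20% each, against 26.6% and 20.1% of all genes). The median of the differences was 0.16.

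Hdc read 6.98, 6.54 and 7.08 on CAF arrays, against 6.75, 6.49 and 6.44 on COF arrays, and these groups overlapped. It read 9.36 and 7.47 on CSC arrays and 13.64 and 13.16 on TEC arrays. A second Hdc probe set read 6.25, 5.76 and 6.64 on CAF arrays, against 5.48, 5.47 and 5.38 on COF arrays. These did not overlap, so the overlap is that of the brighter probe set only. The second one gave a CAF minus COF difference of 0.77, against 0.31 ± 0.40 (SE) for the first. Its CAF minus CSC difference was -2.74, against -1.55. Basophils and immature neutrophils also express Hdc. The median of 11 neutrophil genes was 8.79 and 7.65 on CSC arrays, 12.45 and 11.88 on TEC arrays, 6.27 to 6.56 on CAF arrays and 5.19 to 5.21 on COF arrays.

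Between CAF and COF, 6 of the 8 genes had arrays that did not overlap, all 6 higher in CAF, against 30.1% of all genes. Fcer1a and Kit, both among the 6, lay under the lower quartile on all COF and most CAF arrays. None of the 8 was lower without overlap, against 26.5% of all genes. The median difference over the 8 genes was 0.64, against 0.02 over all genes, and since the choice of genes rested on this contrast nothing is read from either figure. Within the CAF group, array 2 held the lowest value of 7 of the 8 genes, Kit being the exception, and array 3 held the highest value of 7, Mcpt4 being the exception. The median of the 12 leukocyte genes was lowest on CAF array 2, at 5.84, and highest on CAF array 3, at 7.27. Their summed signal on the log2 scale was lowest on CAF array 1, at 10.28, beside 10.33 on array 2 and 11.32 on array 3. Without CAF array 3 the Cpa3 difference was 2.31 and that of Cma1 1.86, and without CAF array 2 they were 2.88 and 2.25.

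**Figure D2:**
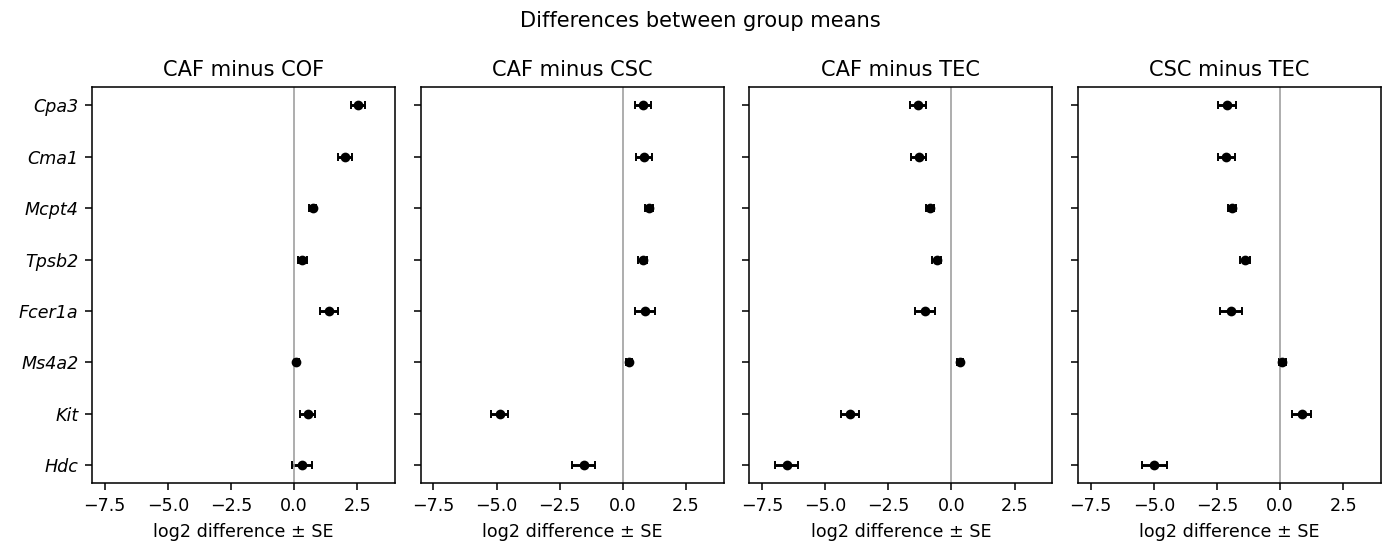
Log2 difference between group means (x axis) with its standard error for each of the 8 genes (y axis) in 4 contrasts. Cpa3, Cma1, Mcpt4, Tpsb2 and Fcer1a lie right of 0 for CAF minus CSC and left of 0 for CSC minus TEC, where Kit and Ms4a2 lie at 0.86 and 0.09.

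Many genes of other leukocytes also stood higher in CAF than in COF, some by more than the mast cell proteases. The leukocyte median was between 5.84 and 7.27 on CAF arrays, against 5.12 to 5.33 on COF arrays, and the median difference over these 12 genes was 1.28. Of them 8 passed limma's test as higher in CAF (66.7%, against 18.1% of all genes), none as lower, and 4 did not pass. Of 17 macrophage genes 10 passed as higher (58.8%), and of 11 neutrophil genes 6 (54.5%), with none lower in either list. Their median differences were 0.75 and 0.89. Of 9 dendritic cell genes 3 passed as higher (33.3%) and 1 as lower (11.1%). The median difference was 0.55 over 12 T and NK cell genes, of which 4 passed as higher (33.3%). None of 7 eosinophil genes or 8 B and plasma cell genes passed, with medians of 0.00 and 0.02. Lyz2, a lysozyme of macrophages and neutrophils, differed by 3.47 ± 0.32 (SE), and S100a8, a calcium-binding protein of neutrophils, by 3.73 ± 0.24 (SE). Both exceed the difference of Cpa3, so the proteases are not the leukocyte genes furthest apart between these groups. Ptprc, the leukocyte surface phosphatase CD45, differed by 1.91 ± 0.49 (SE), close to Cma1. Csf3r, the receptor for a neutrophil growth factor, had a mean of 5.23 in CAF and 5.24 in COF. The 3′ minus 5′ signal of Actb, a measure of RNA quality, was 0.61, 0.59 and 0.60 on CAF arrays, against 0.74, 0.66 and 0.76 on COF arrays, while that of Gapdh overlapped. The median of the epithelial list was 6.62, 6.80 and 6.87 on CAF arrays, against 5.92, 6.20 and 6.17 on COF arrays. Of its 17 genes 11 passed as higher in CAF (64.7%) and 1 as lower (5.88%), so a rise was not particular to leukocyte genes. The part of other leukocytes, epithelial cells or RNA quality in the mast cell values of the CAF arrays was not tested. In sorted populations measured in bulk, fewer cells of a type and less RNA per cell cannot be told apart.

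Set against CSC, the tumour fibroblasts had more signal of mast cell proteases and less of the genes shared by all leukocytes. The CAF minus CSC difference was 0.80 ± 0.32 for Cpa3, 0.84 ± 0.31 for Cma1, 1.04 ± 0.16 for Mcpt4, 0.79 ± 0.18 for Tpsb2 and 0.89 ± 0.39 for Fcer1a (SE). These 5 genes were higher in CAF with no overlap, and so was Ms4a2, whose values at the floor carry no level (6 of 8, against 41.6% of all genes). For Tpsb2 the direction is that of the brighter probe set, and for Fcer1a 2 of 3 CAF and both CSC values were under the lower quartile. Kit and Hdc were lower in CAF with no overlap, by -4.88 ± 0.35 and -1.55 ± 0.45, against 40.4% of all genes. In the same contrast all 12 leukocyte genes passed limma's test at an adjusted p under 0.05 and were lower in CAF, against 33.1% of all genes, with a median difference of -3.29, and so were all 17 macrophage genes. The lymphocyte lists did not share this direction. Of 12 T and NK cell genes, 4 passed as higher in CAF (33.3%, against 33.4% of all genes) and none as lower (against 33.1%). The other 8 did not pass, and the median difference was 0.59. Of 8 B and plasma cell genes 3 passed as higher (37.5%) and 2 as lower (25%). Of 7 eosinophil genes 2 passed as higher and 2 as lower (28.6% each). The shares of higher genes in these lists are near that of all genes. Ptprc was lower in CAF by -3.23 ± 0.55 (limma, adjusted p = 7.23e-04) and Lyz2 by -4.61 ± 0.36 (adjusted p = 5.75e-06). Fcer1g, the gamma chain that the IgE receptor shares with Fc receptors of other leukocytes, was lower in CAF by -4.96 ± 0.19 (adjusted p = 1.16e-07).

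**Figure D3:**
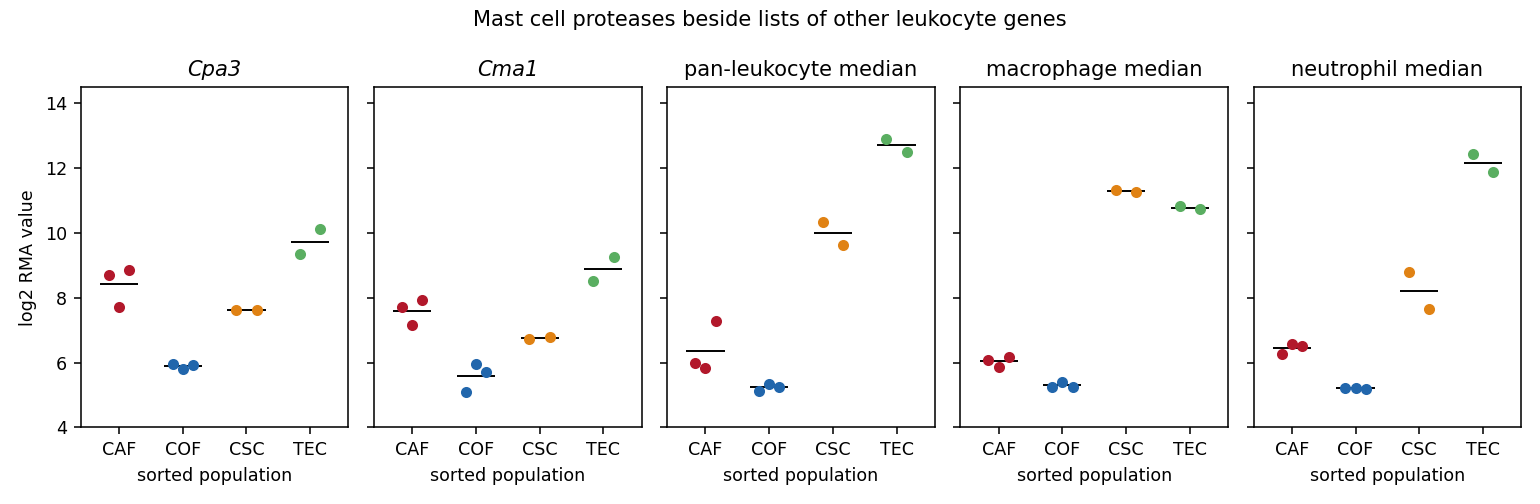
Log2 expression value (y axis) of Cpa3 and Cma1, and the median over lists of 12 leukocyte, 17 macrophage and 11 neutrophil genes, on each array by sorted population (x axis), with black lines for group means. Cpa3 and Cma1 lie higher on CAF than on CSC arrays, whereas the leukocyte median is between 5.84 and 7.27 on CAF arrays and 9.63 and 10.34 on CSC arrays.

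The TEC arrays held the highest values of all but Kit and Ms4a2. The CAF minus TEC difference was -1.31 ± 0.32 for Cpa3, -1.30 ± 0.31 for Cma1, -0.86 ± 0.16 for Mcpt4, -0.59 ± 0.18 for Tpsb2 and -1.05 ± 0.39 for Fcer1a (SE). It was -6.53 ± 0.45 for Hdc and -4.03 ± 0.35 for Kit. Without overlap, 7 genes were lower in CAF, against 34.7% of all genes, and Ms4a2 alone, at the floor in both groups, was higher, against 46.5%. For Fcer1a the highest CAF value and the value of TEC array 1 both round to 5.25, so its place among the 7 rests on unrounded values. Without TEC array 2 the difference was -0.36 for Fcer1a and -0.92 for Cpa3 and for Cma1. It was -0.82 for Mcpt4, -0.43 for Tpsb2, -4.12 for Kit and -6.77 for Hdc. In these arrays the mast cell genes were thus not highest in the tumour fibroblasts they were chosen for. All 12 leukocyte genes passed limma's test and were lower in CAF than in TEC, against 28.9% of all genes, with a median difference of -5.29, and all 12 did so without TEC array 2.

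The tested comparison set CSC against TEC. Of the 8 genes, 6 passed limma's test at an adjusted p under 0.05, all lower in CSC, against 20.1% of all genes that passed and were lower. None passed as higher, against 26.6% of all genes. The median difference over the 8 genes was -1.92, against 0.00 over all genes. Cpa3 was lower in CSC by -2.11 ± 0.35 (SE, limma, adjusted p = 0.00113) and Cma1 by -2.14 ± 0.34 (adjusted p = 8.79e-04). The tightest protease was Mcpt4, at -1.91 ± 0.17 (adjusted p = 4.03e-05), although 1 of its 2 CSC values was under the lower quartile and the other, at 5.15, just above it. Tpsb2 was lower by -1.38 ± 0.19 (adjusted p = 4.28e-04), a call that rests on the brighter of its probe sets. Fcer1a was lower by -1.94 ± 0.43 (adjusted p = 0.00516), with both CSC values under the lower quartile.

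The widest gap was that of Hdc, whose means were 8.41 on CSC arrays and 13.40 on TEC arrays, a difference of -4.98 ± 0.49 (SE, limma, adjusted p = 6.30e-05). Kit did not pass, at 0.86 ± 0.38 (adjusted p = 0.0937), with a 95% interval of 0.00 to 1.72 that leaves room for a higher level in CSC. Without CSC array 1 the Kit difference was 1.51 and passed (adjusted p = 0.00424), and without CSC array 2 it was 0.21 and did not (adjusted p = 0.629). Ms4a2 did not pass either, at 0.09 ± 0.13 (adjusted p = 0.61, 95% interval -0.21 to 0.40).

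The TEC arrays differed from each other in these genes. TEC array 2, the one with the higher fibroblast signal, held the higher value of Cpa3, Cma1, Mcpt4, Tpsb2 and Fcer1a, and TEC array 1 the higher value of Hdc, Kit and Ms4a2. The leukocyte median was lower on TEC array 2 than on TEC array 1, at 12.51 against 12.91. Without TEC array 2, the CSC minus TEC difference was -1.72 for Cpa3 (limma, adjusted p = 0.00576), -1.76 for Cma1 (adjusted p = 0.00434), -1.24 for Fcer1a (adjusted p = 0.0178) and -5.23 for Hdc (adjusted p = 1.82e-04). It was -1.86 for Mcpt4 (adjusted p = 1.64e-04), -1.22 for Tpsb2 (adjusted p = 0.0021), 0.76 for Kit (adjusted p = 0.226) and 0.08 for Ms4a2 (adjusted p = 0.725). All 6 calls held with either TEC array left out. In the same contrast all 12 leukocyte genes and 10 of 11 neutrophil genes passed and were lower in CSC, against 20.1% of all genes. The median differences of these lists were -2.41 and -4.16. Of 17 macrophage genes 5 passed as lower (29.4%) and 6 as higher (35.3%, against 26.6% of all genes), with a median difference of -0.17. The leukocyte count was 11 without TEC array 2 and 9 without TEC array 1, and the neutrophil count 10 in both cases. The 3′ minus 5′ signal of Actb was 0.63 and 0.62 on CSC arrays and 0.32 and 0.46 on TEC arrays, while that of Gapdh was 0.29 and 0.30 on CSC arrays and 0.26 and 0.24 on TEC arrays. The part of other leukocytes or of RNA quality in the mast cell differences was not tested.

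Mast cell genes outside the 8 were taken from 5 lists of 88 genes, of which 71 could be analysed. Between CAF and COF, 16 of the 71 passed limma's test as higher in CAF (22.5%, against 18.1% of all genes) and 9 as lower (12.7%, against 16.7%), with a median difference of 0.01 beside 0.02 for all genes. These shares are near the background, so the lists as a whole did not follow Cpa3 and Cma1. The count of higher genes was 10 without CAF array 1 and 9 without CAF array 3, COF array 1 or COF array 3.

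Of the 14 measured genes of the granule list, 6 were higher in CAF (42.9%, against 18.1% of all genes), 1 was lower (7.14%, against 16.7%) and 7 did not pass. Srgn, the serglycin core protein that packs granule proteases, was higher in CAF by 1.63 ± 0.16 (SE, limma, adjusted p = 1.44e-04), and Vamp8, a membrane fusion protein of granule release, by 1.56 ± 0.15 (adjusted p = 1.14e-04). Gzmb, a serine protease of cytotoxic lymphocytes that mast cells can also express, was higher by 3.62 ± 0.67 (adjusted p = 0.00302), and Rab27b, a GTPase of granule transport, by 0.85 ± 0.12 (adjusted p = 8.46e-04), with all CAF and COF values of Rab27b under the lower quartile. Srgn and Gzmb are used widely by other leukocytes.

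Tpsab1, a tryptase closely related to Tpsb2, read 6.39, 6.38 and 7.49 on CAF arrays, against 4.91, 5.89 and 5.27 on COF arrays. It was higher by 1.40 ± 0.34 (limma, adjusted p = 0.0122), and the call was lost without COF array 1 (adjusted p = 0.0501). Mcpt8, a protease of basophils, was higher by 0.56 ± 0.19 (adjusted p = 0.043), with all CAF and COF values under the lower quartile and the call lost without CAF array 1 or 3 or COF array 2 or 3 (adjusted p up to 0.146). The proteases of mucosal mast cells, under the lower quartile on all 10 arrays, did not pass, at 0.11 ± 0.08 for Mcpt1 (adjusted p = 0.368) and -0.01 ± 0.11 for Mcpt2 (adjusted p = 0.976).

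Among 16 genes of IgE receptor and Kit signalling, 3 were higher in CAF than in COF (18.8%, against 18.1% of all genes), 2 were lower (12.5%, against 16.7%) and 11 did not pass, which is near the background. Syk, the kinase recruited to the receptor, was higher by 1.38 ± 0.21 (limma, adjusted p = 0.00117). Fcer1g was higher by 0.56 ± 0.17 (adjusted p = 0.0338), a call lost without CAF array 2 or 3 or COF array 1 or 3 (adjusted p up to 0.12). The other calls were Plcg2 at 0.25, Fyn at -0.50 and Stat5b at -0.36, each lost under at least 6 of 20 alternative settings. None of 11 other surface receptors was higher in CAF (against 18.1% of all genes), 3 were lower (27.3%, against 16.7%) and 8 did not pass. Enpp3, a surface enzyme known as a marker of human basophils and mast cells, was lower in CAF by -1.70 ± 0.25 (adjusted p = 8.83e-04), Itga2b by -0.87 ± 0.15 (adjusted p = 0.00202) and Il4ra by -0.92 ± 0.17 (adjusted p = 0.00304).

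Of 13 transcription factors of mast cells, 1 was higher in CAF than in COF (7.69%, against 18.1% of all genes), 3 were lower (23.1%, against 16.7%) and 9 did not pass. Gata2, of the GATA family whose letters were searched above, differed by 0.07 ± 0.12 (limma, adjusted p = 0.721). For Gata1, under the lower quartile on all arrays, the difference was -0.13 ± 0.10 (limma, adjusted p = 0.369). Mitf, the factor that drives protease and Kit expression in mast cells, was lower in CAF by -1.47 ± 0.19 (adjusted p = 4.83e-04), and its CAF mean of 8.94 and COF mean of 10.41 are far above the floor. Cebpa, a factor of myeloid cells and adipocytes, was lower by -1.43 ± 0.10 (adjusted p = 2.38e-05) and Meis1 by -0.73 ± 0.14 (adjusted p = 0.00384). Runx1, a factor of blood cells that other cell types also express, was the one that was higher, by 2.21 ± 0.12 (adjusted p = 1.11e-05).

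Of 17 genes of lipid mediators and cytokines, 6 were higher in CAF than in COF (35.3%, against 18.1% of all genes), none was lower (against 16.7%) and 11 did not pass. Ptgs2, the inducible cyclooxygenase, was higher by 0.89 ± 0.11 (limma, adjusted p = 3.19e-04), with a CAF mean of 13.55 and a COF mean of 12.66. Ccl3, a chemokine with 2 of 3 CAF values and all COF values under the lower quartile, was higher by 1.08 ± 0.30 (adjusted p = 0.0214) and Ltc4s, the leukotriene C4 synthase, by 0.49 ± 0.12 (adjusted p = 0.0125). The call of Ccl3 was lost without CAF array 3, COF array 1 or COF array 3 and that of Ltc4s without CAF array 1 or COF array 3 (adjusted p between 0.0502 and 0.0693). Hpgds, the prostaglandin D synthase of mast cells, was under the lower quartile on all CAF and COF arrays and did not pass, at 0.21 ± 0.20 (adjusted p = 0.484).

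**Figure D4:**
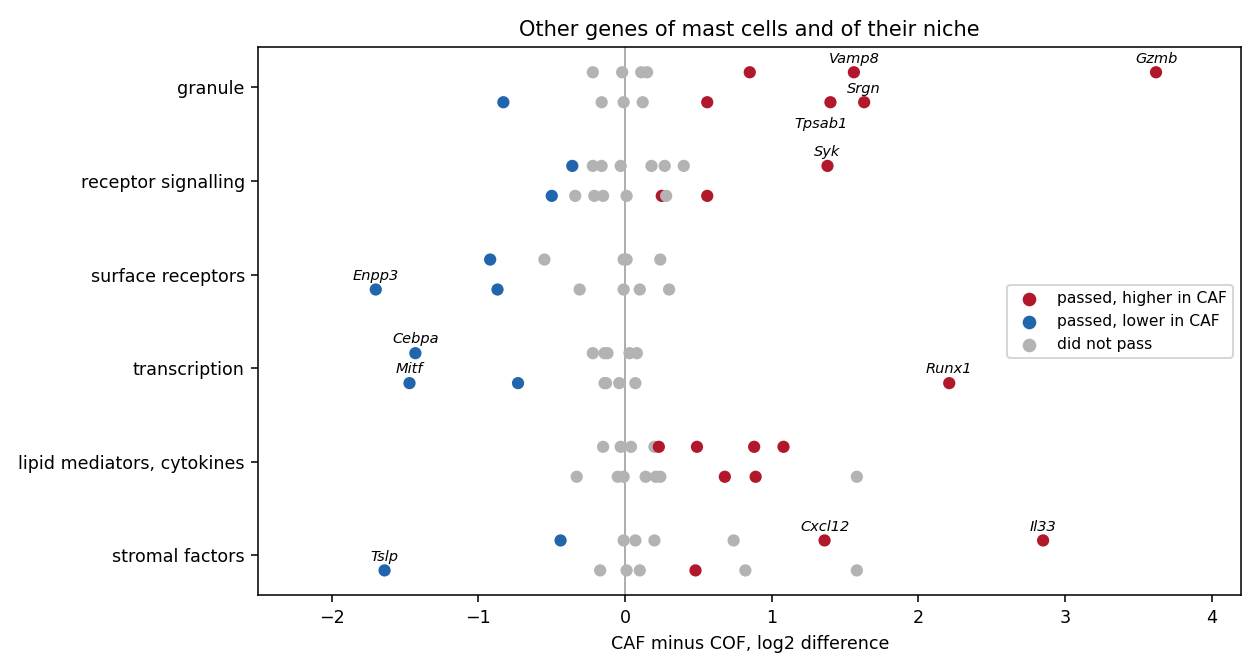
CAF minus COF log2 difference (x axis) of 71 further mast cell genes and 14 stromal factors, grouped by list (y axis), with red points for genes that passed limma's test as higher in CAF, blue for lower and grey for those that did not pass. Gzmb lies furthest right at 3.62 and Enpp3 furthest left at -1.70, and most points lie near 0.

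The stromal side of the mast cell niche was covered by 14 measured genes that recruit, feed or activate mast cells. Between CAF and COF 3 were higher (21.4%, against 18.1% of all genes), 2 were lower (14.3%, against 16.7%) and 9 did not pass. In this fit over all 10 arrays the count is near the background. Il33, an alarmin of stromal nuclei that activates mast cells, read 13.26, 13.22 and 13.23 on CAF arrays, against 10.32, 10.49 and 10.36 on COF arrays. It was higher by 2.85 ± 0.47 (limma, adjusted p = 0.00182), or 7.22-fold. It read 8.63 and 8.60 on CSC arrays and 9.08 and 11.52 on TEC arrays, the higher of which is TEC array 2.

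Kitl, the ligand of Kit, did not differ detectably between the fibroblast groups. It read 11.41, 11.40 and 11.23 on CAF arrays, against 11.42, 11.23 and 11.36 on COF arrays, a difference of 0.01 ± 0.41 (limma, adjusted p = 0.99). Its mean was 11.35 in CAF and 9.35 in CSC, a difference that passed (adjusted p = 0.00398). Tslp, an epithelial and stromal cytokine that acts on mast cells, was lower in CAF than in COF by -1.64 ± 0.33 (adjusted p = 0.00445). The remaining calls were Tgfb1 at 0.48, Cxcl12 at 1.36 and Cx3cl1 at -0.44, each lost under at least 5 of 20 alternative settings. Cxcl12 read 13.68 to 13.83 on CAF arrays and 12.21 to 12.52 on COF arrays, without overlap. Its SE of 0.46 pools the spread of all 4 groups, and it read 9.90 and 12.24 on the TEC arrays. The count of higher stromal factors was 1 without CAF array 1 or 3 or COF array 1 or 3, and 5 without either TEC array.

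In the tested contrast of CSC with TEC, the further mast cell genes mostly stood lower in CSC, as 6 of the 8 did. Of the 71, 40 passed as lower in CSC (56.3%, against 20.1% of all genes) and 8 as higher (11.3%, against 26.6%), with a median difference of -0.81. Across the lists of other leukocytes the share lower in CSC ran from 29.4% (macrophage genes) to 100% (dendritic cell genes and genes shared by all leukocytes). Among macrophage genes a larger share, 35.3%, passed as higher in CSC. Tpsab1 was lower in CSC by -1.37 ± 0.42 (limma, adjusted p = 0.025), a call lost without CSC array 1 (adjusted p = 0.133) or TEC array 2 (adjusted p = 0.092). Ctsg, a protease of neutrophil and mast cell granules, was lower by -3.14 ± 0.42 (adjusted p = 3.26e-04), Syk by -2.92 ± 0.26 (adjusted p = 3.58e-05) and Fcer1g by -1.89 ± 0.21 (adjusted p = 1.26e-04). Gata2 went the other way and was higher in CSC by 1.68 ± 0.14 (adjusted p = 3.08e-05). Enpp3 was higher in CSC by 3.19 ± 0.30 (adjusted p = 4.80e-05), and Rab27b by 1.38 ± 0.15 (adjusted p = 1.00e-04). Without TEC array 2 the counts were again 40 and 8, and the differences were -3.11 for Ctsg, -3.18 for Syk, -2.05 for Fcer1g, 1.73 for Gata2, 3.45 for Enpp3 and 1.57 for Rab27b, all of which passed.

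Between CAF and CSC the further genes were split, with 25 of 71 higher in CAF (35.2%, against 33.4% of all genes) and 35 lower (49.3%, against 33.1%). Tpsab1 did not pass, at 0.71 ± 0.38 (limma, adjusted p = 0.131), although its value was on the side of Tpsb2. Mcpt8 was higher in CAF by 0.83 ± 0.21 (adjusted p = 0.00639), but its values were under the lower quartile in both groups and the call was lost without CSC array 2 (0.67, adjusted p = 0.0601). Mitf was higher in CAF by 2.29 ± 0.21 (adjusted p = 1.66e-05), while Srgn was lower by -1.40 ± 0.18 (adjusted p = 1.40e-04) and Gata2 by -2.29 ± 0.13 (adjusted p = 8.53e-07).

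To see which other genes ran in parallel, 5173 genes with an SD of at least 0.5 were ranked by their mean Pearson correlation with Cpa3 and Cma1 over the 10 arrays, which fall into 4 groups and share those groups' differences. Capzb, an actin-capping protein, came first with 0.955, and Fcer1a followed at rank 2 with 0.948. Plekhb2, Chil1, Pmaip1, Fxyd5, Cybc1, Trp53inp2, Mmp9 and Clcf1 came next, down to 0.924. Chil1, a chitinase-like protein, read 10.59, 10.37 and 10.11 on CAF arrays, against 5.09, 5.64 and 5.89 on COF arrays, with 8.58 and 8.22 on CSC arrays and 11.59 and 11.06 on TEC arrays. The remaining ranked members stood lower, with Mcpt4 at 0.834 (rank 91), Hdc at 0.725 (rank 390), Tpsb2 at 0.694 (rank 538) and Kit at 0.497 (rank 1350). Ptprc had 0.773 (rank 236), above Hdc, Tpsb2 and Kit.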

How the data were processed

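Sorted cells were measured on 10 Affymetrix mouse arrays, and the authors deposited log2 values. The submitters' processing notes name RMA. Its version and the set of arrays normalized together are not given in the sources used here. Of 22690 probe sets, 20393 carried exactly 1 gene symbol in the platform annotation, 691 carried several and 1606 none. Each gene was represented by its brightest probe set (mean over the 10 arrays), which left 12394 genes, all of them tested. Group means were fitted over all 10 arrays with limma 3.58.1 in R 4.3.3 (lmFit, eBayes) and p-values adjusted by Benjamini-Hochberg over all genes, with a threshold of 0.05. The fit was checked on simulated data. Array number limits precision.

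The genes and all lists were chosen with earlier results of these data known. The text names the 8 genes, from each list up to 4 genes of smallest adjusted p, a set of leukocyte, mast cell and niche genes, the 10 genes most like Cpa3 and Cma1, and genes of counts of 5 or fewer. Il1rl1, the receptor of Il33, was not analysed here. Same-numbered CAF and COF arrays had correlations of deviations of 0.13, 0.01 and -0.08, and those of CSC and TEC -0.06 and -0.06, so the numbers were not taken as pairs. Alternatives covered the arrays fitted, the variance prior, probe set choice, scaling, a filter on the dimmest 30% of genes and each array left out. Promoter sequences are from RefSeq (GRCm38.p6).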

Additional observations from a re-analysis of the deposited data

How the results depend on the processing

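With 2 or 3 arrays a group, 1 array can decide a call, and values near the floor of the arrays (Ms4a2, Fcer1a, Mcpt4 in CSC, and Kit in fibroblasts) limit what can be read. Of 72 gene tests, 42 kept direction and side of the threshold under all alternatives that gave a value. Over all 1424 such values, 1290 kept both, 118 lost the call, 4 gained it and 12 changed sign. The CSC minus TEC calls of Cpa3, Cma1, Mcpt4, Tpsb2, Fcer1a and Hdc held throughout (adjusted p up to 0.0498, for Fcer1a), though the filter on dim genes or the removal of shared probe sets left no value for Mcpt4, Fcer1a or Hdc in 1 setting each. The replicate block, with arrays paired by number, left Cpa3 at -2.11 (limma, adjusted p = 0.00355) and changed no call of the 8 genes.

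Among the 8 genes, the number higher in CSC than in TEC was 0, and 1 (Kit, at 0.80 with adjusted p = 0.037) with the mean of all probe sets, with 0 to 1 when single arrays were left out. For the further mast cell genes between CAF and COF, the 16 higher became 10 with arrays centred on their medians and 7 with the closest CAF and COF pairs averaged, and 9 to 18 when single arrays were left out. The 9 lower became 5 with pairs averaged, and 6 to 11 when single arrays were left out. The 3 higher stromal factors became 5 with only CAF and COF fitted, 1 with pairs averaged and 1 to 5 when single arrays were left out. The 2 lower became 1 with the mean of all probe sets, 0 with pairs averaged and 1 to 2 when single arrays were left out. The 8 further genes higher in CSC than in TEC became 4 with only those groups fitted. The cause was not tested. Leaving out either TEC array for CAF minus TEC was chosen after seeing the data.

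All sign changes were of differences near 0. Ms4a2 (CSC minus TEC) was -0.03 with median centring and between -0.02 (without CSC replicate 2) and 0.20 when single arrays were left out. Between CAF and COF, Gata2 was 0.00 with a further quantile normalization and 0.00 with median centring. Kitl was -0.08 with the mean of all probe sets, -0.06 with median centring, -0.02 without CAF replicate 1 or 2, and between -0.04 (without COF replicate 2) and 0.07 when single arrays were left out. Csf3r was 0.00 with pairs averaged, 0.03 without COF replicate 1, and between -0.07 and 0.05 (without CAF replicate 2) when single arrays were left out. Over all genes, the count between CAF and COF ranged from 806 to 3033 for higher and from 999 to 2653 for lower, around 2238 and 2071.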
